A study of Homo sapiens with 4 samples.

Results

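Histone deacetylases, sirtuins and lysine demethylases remove acetyl or methyl groups from histones and other proteins, and their transcripts were followed here in A2780, a long-established adherent line derived from a human ovarian tumour. The genes were taken by symbol from the deposited table, namely every HDAC gene, SIRT1 to SIRT7 and every KDM gene of families 1 to 8, with KDM5D left out. That gave 36 of the 35371 gene symbols, made up of 11 HDAC genes, 7 sirtuins and 18 lysine demethylases. The cells had received GD-07, a compound that the series describes as an inhibitor of MYC (2 libraries), or served as controls (2 libraries). The series text speaks of a vehicle, the sample labels record no treatment for the controls, and neither dose nor duration is stated. All cells were grown in DMEM with serum and antibiotics, and no further genetic or chemical treatment is recorded. Values are TPM (transcript abundance scaled to a fixed total), which account for transcript length and for the total of each library, so levels of different genes can be compared within a library. The sequencing depth behind them is unknown. The labels do not state separate cultures for the 2 libraries of a group, so p-values reflect the spread of these libraries alone, and that spread may be technical.

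As background, the classical deacetylases of classes I, II and IV use a zinc ion. Those of class I, apart from HDAC8, work as the catalytic part of large co-repressor complexes called SIN3, NuRD, CoREST, NCOR/SMRT and MiDAC. Sirtuins instead consume NAD+ and so couple deacylation to metabolism, some of them in mitochondria. Lysine demethylases are of a pair of kinds, the FAD-dependent KDM1 enzymes and the larger group with a JmjC domain, which need iron, oxygen and 2-oxoglutarate and are inhibited by succinate and fumarate. MYC, the factor named as the target of GD-07, binds DNA with its partner MAX at the sequence CACGTG, known as the E-box, and is known to recruit or interact with several of these enzymes.

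MYC mRNA was at 29.1 and 23.6 TPM with GD-07, against 86.0 and 67.5 TPM in the controls. The libraries differed in ways other than the treatment. Mitochondrially encoded transcripts made up 2.52% and 6.52% of TPM in GD-07 replicates 1 and 2, against 4.36% and 3.72% in control replicates 1 and 2. Pearson correlations across genes on the log2 scale were 0.982 for the GD-07 pair and 0.993 for the control pair, while GD-07 replicate 1 correlated at 0.983 with control replicate 2. Ovarian and epithelial markers were low in all libraries, with a highest mean of 4.91 TPM for KRT18. PAX8, WT1 and MUC16 had means of 0.0803, 0.00249 and 0.00237 TPM, so these markers were near 0. Of the other cell types checked, leukocyte markers summed to 1.44 to 2.57 TPM and endothelial markers to 0.333 to 0.693 TPM. Fibroblast markers summed to 26.1 and 41.5 TPM with GD-07 and to 56.5 and 44.6 TPM in the controls, most of it COL1A1, a gene that cells of mesenchymal character also express.

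The sequences 5′ of the start sites are shown because MYC acts through E-boxes and because the genes below differ in whether one lies there. The window is the 250 bases upstream of the RefSeq start (GRCh38.p14), and RefSeq's table held such a window for 33 of the 36 genes. The motif CACGTG, which reads the same on both strands, occurred in a window of 5 of these 33 genes (15.2%), namely HDAC4, KDM4B, KDM4C, KDM6A and SIRT1, compared with 7.73% of all 27305 genes in the table. The members had more windows per gene (52 for 33 genes, against 35116 for 27305) and windows richer in G and C (median 64.0%, against 58.0%) and in CpG (median 21.5 per window, against 11.0), and the part of these in the share was not tested. KDM1B, the one member that passed the test below, is on the plus strand (window chr6:18155172-18155421) and had no CACGTG. KDM5B, on the minus strand (chr1:202808422-202808671), had none either. KDM6A, on the plus strand (chrX:44872938-44873187), had 1, which begins 95 bases before the start, and SIRT1, on the plus strand (chr10:67884406-67884655), had 2, beginning 123 and 44 bases before it. Capitals mark CACGTG. For KDM1B and KDM6A the window reaches into the gene as GENCODE 29 draws it, since that annotation places the outermost start further upstream. For KDM5B the window lies wholly inside the gene, whose outermost start is at base 202809470. Sequence upstream of that start was not examined.
KDM1B: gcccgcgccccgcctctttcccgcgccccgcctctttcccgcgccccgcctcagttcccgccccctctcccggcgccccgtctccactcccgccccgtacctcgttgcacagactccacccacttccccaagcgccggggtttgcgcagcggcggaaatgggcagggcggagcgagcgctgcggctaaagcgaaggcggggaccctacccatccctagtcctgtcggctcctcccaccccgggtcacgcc
KDM5B: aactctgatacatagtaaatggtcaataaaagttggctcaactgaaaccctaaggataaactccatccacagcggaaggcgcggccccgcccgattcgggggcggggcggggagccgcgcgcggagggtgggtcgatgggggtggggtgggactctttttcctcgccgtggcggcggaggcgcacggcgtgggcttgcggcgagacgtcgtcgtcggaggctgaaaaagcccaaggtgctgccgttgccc
KDM6A: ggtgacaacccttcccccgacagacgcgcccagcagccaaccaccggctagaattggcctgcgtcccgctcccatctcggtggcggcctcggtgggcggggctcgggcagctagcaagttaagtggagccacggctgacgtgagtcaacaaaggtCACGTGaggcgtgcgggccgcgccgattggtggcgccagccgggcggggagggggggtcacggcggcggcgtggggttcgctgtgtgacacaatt
SIRT1: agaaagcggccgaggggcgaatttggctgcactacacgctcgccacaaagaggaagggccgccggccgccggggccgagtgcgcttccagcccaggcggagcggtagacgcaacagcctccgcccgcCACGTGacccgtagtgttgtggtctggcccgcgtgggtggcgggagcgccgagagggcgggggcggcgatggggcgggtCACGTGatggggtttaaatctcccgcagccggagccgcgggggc

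Of the 36 genes, 35 had a mean of at least 1 TPM and were tested together with the other genes above that level, 13063 in all. KDM4E, a close relative of KDM4D, was listed at 0 in 3 libraries and at 0.00813 TPM in control replicate 1, and was not tested. The summed TPM of the HDAC genes was 665.2 and 628.6 with GD-07, against 696.1 and 657.5 in the controls, that of the sirtuins 175.6 and 171.2, against 175.5 and 157.7, and that of the KDM genes 324.0 and 379.4, against 383.0 and 334.9. For each of these sums the groups overlapped. The order of the genes spanned a wide range in both groups, with HDAC1 highest. The lowest of those tested were KDM1B, HDAC4, KDM4D and KDM7A with GD-07, and KDM7A, KDM4D, SIRT4 and HDAC4 in the controls, as the plot of levels shows.

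**Figure D1:**
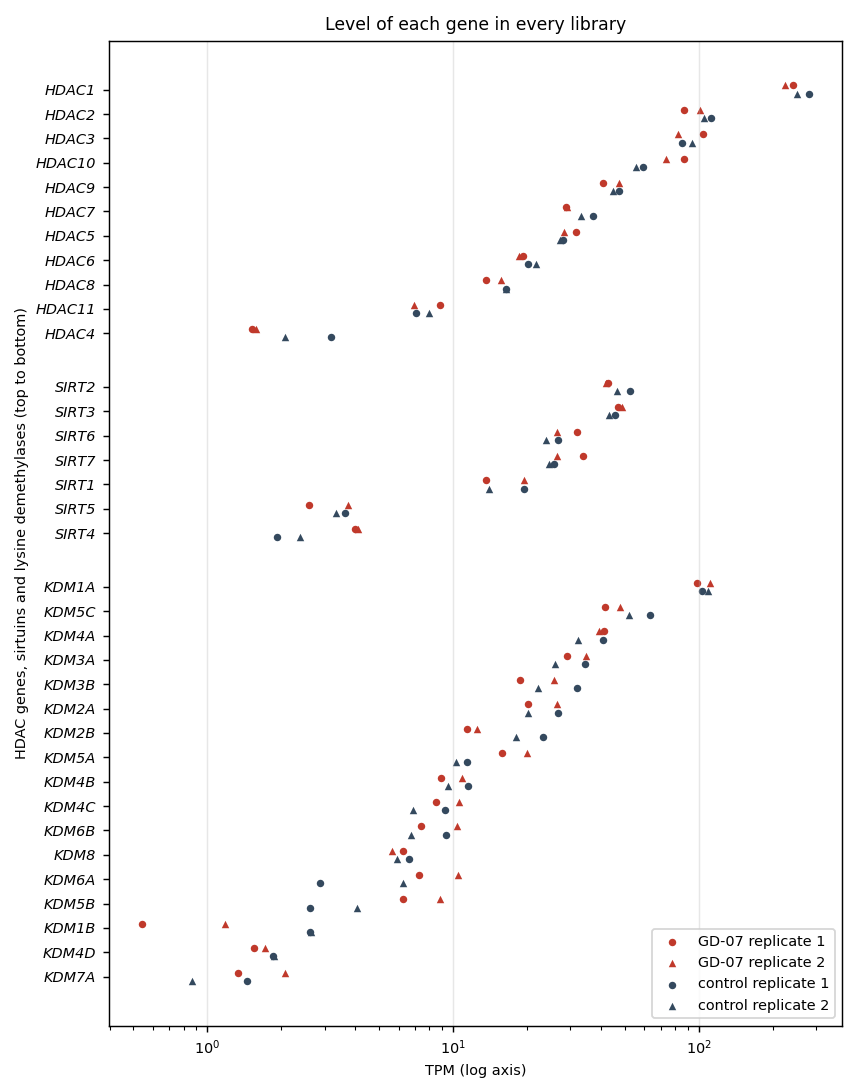
TPM of each of the 35 tested genes in every library, on a log axis, with HDAC genes, sirtuins and lysine demethylases from top to bottom and ordered by control mean. Red marks are GD-07 libraries and dark marks are controls, circles replicate 1 and triangles replicate 2; most genes lie close together in all 4 libraries, while KDM1B, KDM5A, KDM5B, SIRT4 and HDAC10 are among those with separate groups.

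At a limma adjusted p under 0.05 there was 1 call among the members, KDM1B, lower with GD-07. Its GD-07 mean was under 1 TPM, so it was tested only through its level in the controls. That is 1 of 35, beside 5.21% of all genes tested, so the share is near the background. In the direction of lower calls the background was 3.19%, and for higher calls, of which the members had 0, it was 2.02%. At an unadjusted p under 0.05 there were 7 members of 35, against 24.8% of all genes. The members had 19 negative and 16 positive log2 fold changes with a median of -0.02, against a median of -0.04 over all genes, and their median absolute value was 0.19 on the log2 scale, against 0.25 over all genes. In 8 members every GD-07 value was above every control value and in 11 every one was below, which is 22.9% and 31.4%, beside 25.3% and 30.5% of all genes. After quantile normalization the 778 calls over all genes were 383 higher and 395 lower, against 264 higher and 417 lower with the values as deposited. The number of members that passed changed with the library left out, and so did the number over all genes.

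**Figure D2:**
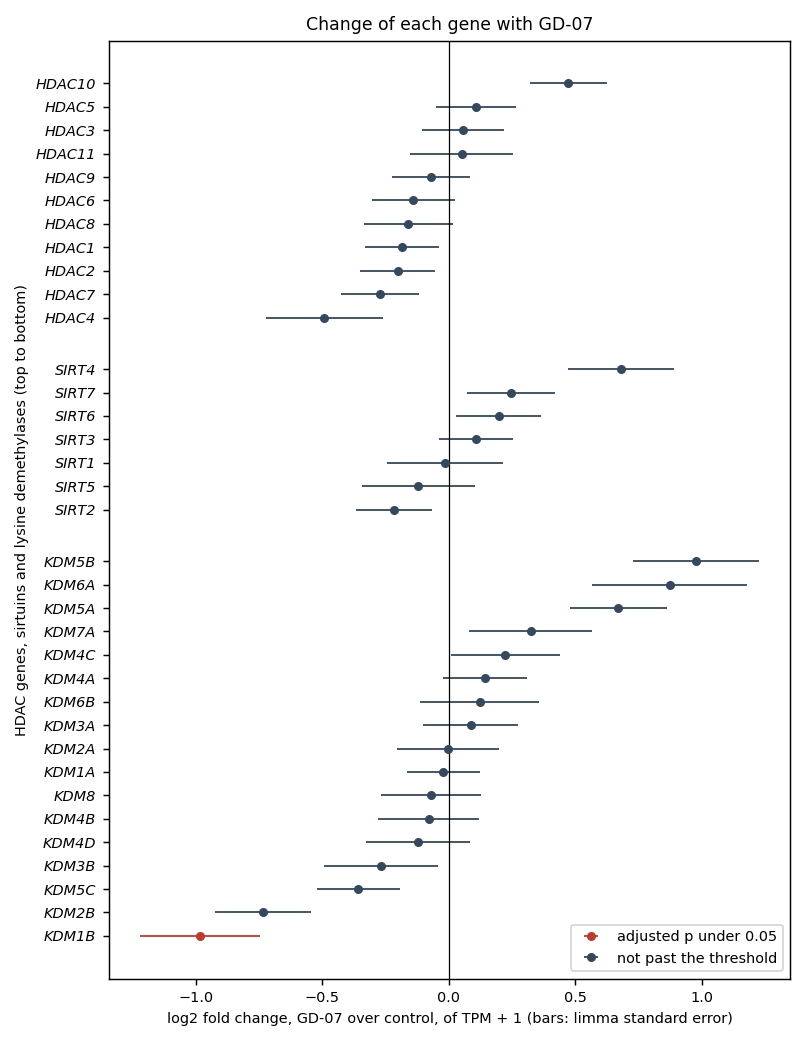
Log2 fold change of TPM + 1, GD-07 over control, for the 35 tested genes, with limma's standard error as bars and the 3 families from top to bottom. KDM1B, at -0.98, is the one gene past the threshold (red), and KDM5B (0.98), KDM6A (0.87) and KDM2B (-0.73) lie farthest from 0 among the rest.

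KDM1B, also called LSD2, is the less abundant of the FAD-dependent demethylases and acts on lysine 4 of histone H3 within transcribed gene bodies. It fell with GD-07 by a call at the edge of the threshold, in a gene that met the minimum mean of 1 TPM only through the controls, where it is high. Its transcript was at 0.543 and 1.18 TPM in the GD-07 libraries, against 2.61 and 2.64 TPM in the controls, so the control pair was nearly identical and both GD-07 values were below it. Means were 0.860 ± 0.448 TPM with GD-07 and 2.63 ± 0.0196 TPM in controls (SD, n = 2 each). The log2 fold change was -0.98 ± 0.24 (limma standard error; 95% interval -1.52 to -0.45; limma adjusted p = 0.0487) on log2(TPM + 1), a scale that compresses differences of so low a gene: on plain TPM the control mean was 3.05 times the GD-07 mean. The gene (ENSG00000165097.14) is annotated on chromosome 6, plus strand, between bases 18155329 and 18223853 (GRCh38), and its exons overlap no other annotated gene. The call ended without control replicate 1 (limma adjusted p = 0.126) and without control replicate 2 (0.0834), with a pseudocount of 0.1 TPM (0.0626), under quantile normalization (0.0579), without limma's trend (0.0508) and with no filter on low values (0.246).

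KDM1A, or LSD1, its abundant relative and the demethylase of the CoREST complex, did not pass. It was at 98.4 and 110.9 TPM with GD-07, against 102.8 and 109.4 TPM in the controls, a log2 fold change of -0.02 with a 95% interval of -0.35 to 0.30 (limma adjusted p = 0.943). That sign turned positive under both other scalings. KDM1B made up 0.549% and 1.05% of the pair's summed TPM with GD-07, against 2.48% and 2.36% in the controls. Because KDM1A holds nearly all of the sum, the total for the FAD-dependent pair was 98.9 and 112.1 TPM with GD-07, against 105.4 and 112.0 TPM in the controls.

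The KDM5 enzymes remove di- and trimethylation from lysine 4 of histone H3, the mark of active promoters. None of the 3 measured passed, but their proportions were set apart between the groups. KDM5B was at 6.25 and 8.82 TPM with GD-07, against 2.61 and 4.08 TPM in the controls (0.98 ± 0.25 on the log2 scale, limma adjusted p = 0.0547). KDM5A, first known as a binding partner of the retinoblastoma protein, was at 15.8 and 20.04 TPM with GD-07, against 11.4 and 10.2 TPM in the controls (0.67 ± 0.19, limma adjusted p = 0.0734). KDM5C was at 41.5 and 47.7 TPM with GD-07, against 63.3 and 51.9 TPM in the controls (-0.36 ± 0.16, limma adjusted p = 0.215). For each of these genes the groups did not overlap, and KDM5A and KDM5B stood on the opposite side from KDM5C. Such separation is common here. Over all genes the groups did not overlap in 25.3% on the higher side and 30.5% on the lower.

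Both directions occurred within the family, and its sum overlapped between the groups, at 63.6 and 76.6 TPM with GD-07 and 77.3 and 66.2 TPM in the controls. The make-up of that sum, which no rescaling of a library can alter, separated the groups. KDM5C held 65.3% and 62.3% of it with GD-07, against 81.9% and 78.4% in the controls. KDM5A held 24.8% and 26.2% with GD-07, against 14.8% and 15.5%, and KDM5B 9.83% and 11.5% with GD-07, against 3.37% and 6.16%. The mean difference for KDM5C was -16.3 percentage points, and it lay between -18.0 and -14.6 when any 1 library was left out. Because the shares of the groups did not overlap, no such omission could change its sign. With 2 libraries against 2, an exact two-sided permutation test cannot give a p below 0.333, so these shares carry no test.

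**Figure D3:**
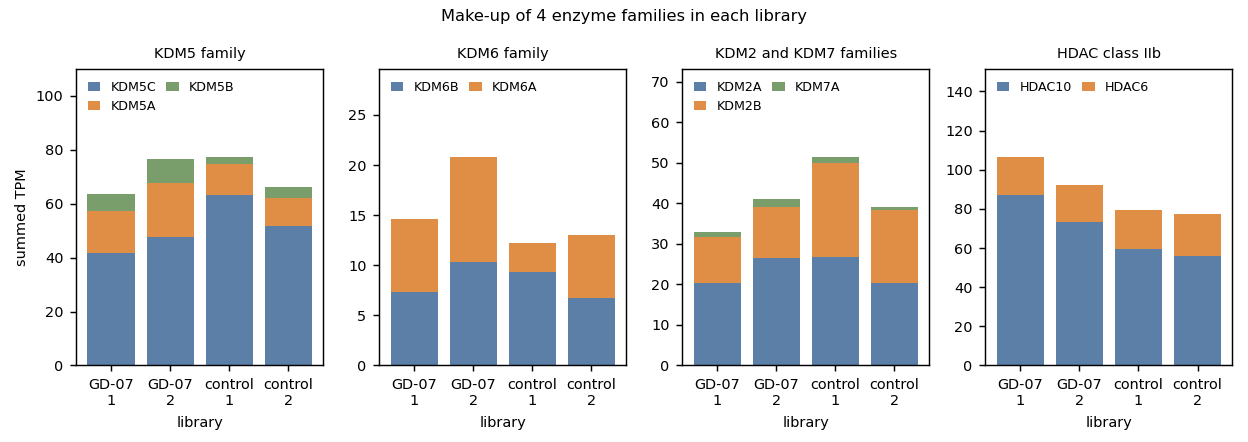
Summed TPM of 4 enzyme families in each library (GD-07 replicates 1 and 2, then control replicates 1 and 2), stacked by gene; each panel has its own axis from 0. KDM5A and KDM5B take more of the KDM5 sum with GD-07, KDM2B takes less of the KDM2 and KDM7 sum, and KDM6A is low in control replicate 1 alone.

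KDM5B passed under median-ratio rescaling (limma adjusted p = 0.0474) and with the minimum mean raised to 5 TPM (0.0414). It met that raised mean only through the GD-07 libraries, with a mean of 7.53 TPM there and 3.34 TPM in the controls. It did not pass under quantile normalization (limma adjusted p = 0.0604), without limma's trend (0.0675) or with no filter on low values (0.273). Whether it passed also depended on the library left out, with log2 fold changes from 0.73 to 1.23. KDM5A passed under median-ratio rescaling (limma adjusted p = 0.0414), quantile normalization (0.0417) and without GD-07 replicate 1 (0.0301). It did not pass on leaving out control replicate 1 (limma adjusted p = 0.188), control replicate 2 (0.261) or GD-07 replicate 2 (0.223). Exons of KDM5A overlap those of CCDC77 on the opposite strand, and the sources used here do not say whether quantification used strand. The same holds for KDM2B, whose exons overlap those of RNF34. In all, exons of 13 members overlap a gene on the opposite strand, SIRT2, SIRT3 and SIRT4 among them. Those of 5 members, SIRT7 among them, overlap a gene on the same strand.

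KDM2A and KDM2B remove dimethylation from lysine 36 of histone H3 and bind unmethylated CpG islands, and KDM2B also brings a Polycomb complex to them. KDM2B was at 11.4 and 12.5 TPM with GD-07, against 23.3 and 18.0 TPM in the controls, so the groups did not overlap. Its log2 fold change was -0.73 ± 0.19 (95% interval -1.16 to -0.30; limma adjusted p = 0.0567), just outside the threshold, and it passed under median-ratio rescaling (0.0406) and quantile normalization (0.0415) and without control replicate 2 (0.0433) but had 0.431 without control replicate 1. KDM2A was at 20.2 and 26.6 TPM with GD-07, against 26.7 and 20.3 TPM in the controls, nearly the same pair of values in the opposite replicates. KDM2B therefore held 34.5% and 30.4% of the summed TPM of KDM2A, KDM2B and KDM7A with GD-07, against 45.3% and 46.0% in the controls. KDM7A, which acts on lysines 9 and 27 of histone H3, was at 1.33 and 2.06 TPM with GD-07, against 1.45 and 0.865 TPM in the controls (log2 fold change 0.32 ± 0.24, limma adjusted p = 0.444).

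KDM6A and KDM6B remove methylation from lysine 27 of histone H3, the Polycomb mark, and KDM6A is a subunit of a complex that methylates lysine 4. KDM6A, whose E-box is shown above, was at 7.24 and 10.5 TPM with GD-07, against 2.88 and 6.25 TPM in the controls. The control values lay farther apart, in proportion, than those of any other member tested, and on the log2 scale the difference was 0.87 ± 0.31 (limma adjusted p = 0.122). Leaving out control replicate 2 gave 1.32, past the threshold (limma adjusted p = 0.00388), as did leaving out GD-07 replicate 1 (1.11, limma adjusted p = 0.0437), and the value was 0.42 without control replicate 1 (0.664), so its size rests on which control is used. KDM6B overlapped, at 7.37 and 10.4 TPM with GD-07 and 9.36 and 6.74 TPM in the controls. KDM6A held 49.5% and 50.3% of the pair's sum with GD-07 and 48.1% in control replicate 2, against 23.5% in control replicate 1, so that share set 1 control library apart and not the groups.

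The KDM3 and KDM4 families act on lysine 9 of histone H3, and none of their 6 tested genes passed, with limma adjusted p between 0.497 for KDM3B and 0.843 for KDM4B. KDM3A, which hypoxia is known to induce, was at 29.1 and 34.9 TPM with GD-07, against 34.6 and 25.9 TPM in the controls. KDM3B was at 18.6 and 25.8 TPM with GD-07, against 32.0 and 22.1 TPM in the controls. In both, the groups overlapped and the difference between replicates was of the size of any difference between groups.

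KDM4A, KDM4B and KDM4C remove trimethylation from lysines 9 and 36. KDM4A was at 41.1 and 39.3 TPM with GD-07, against 40.7 and 32.3 TPM in the controls, KDM4B at 8.89 and 10.9 TPM, against 11.5 and 9.51 TPM, and KDM4C at 8.49 and 10.6 TPM, against 9.26 and 6.88 TPM. KDM4B and KDM4C carry an E-box in the window examined. KDM4D was at 1.54 and 1.71 TPM with GD-07, against 1.85 and 1.87 TPM in the controls, and KDM8, a JmjC protein now regarded mainly as a hydroxylase, at 6.24 and 5.65 TPM, against 6.63 and 5.93 TPM.

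HDAC1 had the highest level of all members, and no deacetylase passed the test. HDAC1 and HDAC2 are the near-identical catalytic subunits of SIN3, NuRD and CoREST. HDAC1 was at 242.5 and 223.6 TPM with GD-07, against 280.9 and 250.1 TPM in the controls (log2 fold change -0.19, 95% interval -0.52 to 0.14, limma adjusted p = 0.467). HDAC2 was at 87.0 and 101.6 TPM, against 111.7 and 104.9 TPM (-0.20, 95% interval -0.54 to 0.13, limma adjusted p = 0.433). The groups did not overlap for either gene, but both intervals include 0.

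HDAC3, the enzyme of NCOR/SMRT, was at 104.4 and 82.5 TPM with GD-07, against 85.0 and 93.6 TPM in the controls, and HDAC8, which deacetylates cohesin, at 13.6 and 15.7 TPM, against 16.4 TPM in each control. The class I sum was 447.4 and 423.4 TPM with GD-07 and 493.9 and 464.9 TPM in the controls. Class I made up 67.3% and 67.4% of all HDAC TPM with GD-07, against 71.0% and 70.7% in the controls.

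Within class IIb the genes had opposite signs. HDAC10, which deacetylates polyamines, was at 87.3 and 73.5 TPM with GD-07, against 59.3 and 55.7 TPM in the controls, and its log2 difference of 0.47 ± 0.15 had a 95% interval of 0.13 to 0.82 (limma adjusted p = 0.1). The call appeared on leaving out GD-07 replicate 2 (0.0268 by limma) and not on leaving out GD-07 replicate 1 (0.136). HDAC6, which deacetylates tubulin, was at 19.2 and 18.6 TPM with GD-07, against 20.2 and 21.7 TPM in the controls. Class IIb held 16.0% and 14.7% of HDAC TPM with GD-07, against 11.4% and 11.8% in the controls. Exons of HDAC10 overlap those of its neighbour MAPK12 on the same strand, so reads of the overlap may be shared between them.

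Class IIa enzymes have little activity of their own and act as shuttling co-repressors of MEF2 factors. HDAC4 was at 1.52 and 1.57 TPM with GD-07, against 3.17 and 2.07 TPM in the controls, without overlap (log2 fold change -0.49 ± 0.23, limma adjusted p = 0.223). HDAC7 was at 28.7 and 29.1 TPM, against 37.1 and 33.2 TPM (-0.27 ± 0.15, limma adjusted p = 0.312). HDAC5, at 31.6 and 28.3 TPM with GD-07 and 28.0 and 27.3 TPM in the controls, had the opposite sign. HDAC9 was at 40.6 and 47.2 TPM with GD-07, against 47.4 and 44.6 TPM in the controls, and HDAC11, the class IV enzyme, at 8.81 and 6.92 TPM, against 7.05 and 7.99 TPM, both with overlapping groups.

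No sirtuin passed. The one farthest from 0 was SIRT4, a mitochondrial member known to restrain glutamate dehydrogenase, at 3.97 and 4.11 TPM with GD-07, against 1.93 and 2.38 TPM in the controls. The replicates of each group lay close and the groups were apart by 0.68 ± 0.21 on the log2 scale (95% interval 0.21 to 1.15; limma adjusted p = 0.0867), or 1.88 times on the means of plain TPM. SIRT4 held 7.43% and 7.27% of the mitochondrial sirtuin TPM with GD-07, against 3.77% and 4.87% in the controls. The sum was dominated by SIRT3, the main mitochondrial deacetylase, at 46.9 and 48.7 TPM with GD-07, against 45.6 and 43.1 TPM in the controls. SIRT5, which removes succinyl and malonyl groups, was at 2.60 and 3.74 TPM, against 3.63 and 3.35 TPM.

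The nuclear and cytosolic sirtuins spread to both sides. SIRT1, which deacetylates p53 and carries 2 of the E-boxes printed above, was at 13.6 and 19.5 TPM with GD-07, against 19.4 and 13.97 TPM in the controls, with a log2 fold change of -0.02 (95% interval -0.53 to 0.50). SIRT2, mostly cytosolic, was at 42.7 and 42.0 TPM, against 52.5 and 46.4 TPM, and did not overlap (-0.22 ± 0.15, limma adjusted p = 0.407). SIRT6, a chromatin enzyme known to repress glycolytic genes, was at 31.9 and 26.5 TPM with GD-07, against 26.6 and 23.9 TPM in the controls. SIRT7, a nucleolar enzyme, was at 33.9 and 26.6 TPM, against 25.8 and 24.6 TPM.

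For many members the replicates of a group differed as much as the groups. In 17 of the 35, control replicate 1 was above control replicate 2 while GD-07 replicate 2 was above GD-07 replicate 1, a share of 48.6% beside 48.4% of all genes. The reverse on both counts occurred in 3 members (8.57%), all HDAC genes, beside 18.7% of all genes. Of the 17 genes, 10 were lysine demethylases, KDM2A, KDM3A, KDM3B, KDM4C, KDM6B and KDM7A among them, and SIRT1 was another. Their longest annotated coding transcripts had a median of 6096 bases, against 2969 bases for the other 18 members, and over all genes the same split gave 4116 and 2498 bases. The part of transcript length, or of the mitochondrial share given above, in these differences was not tested.

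**Figure D4:**
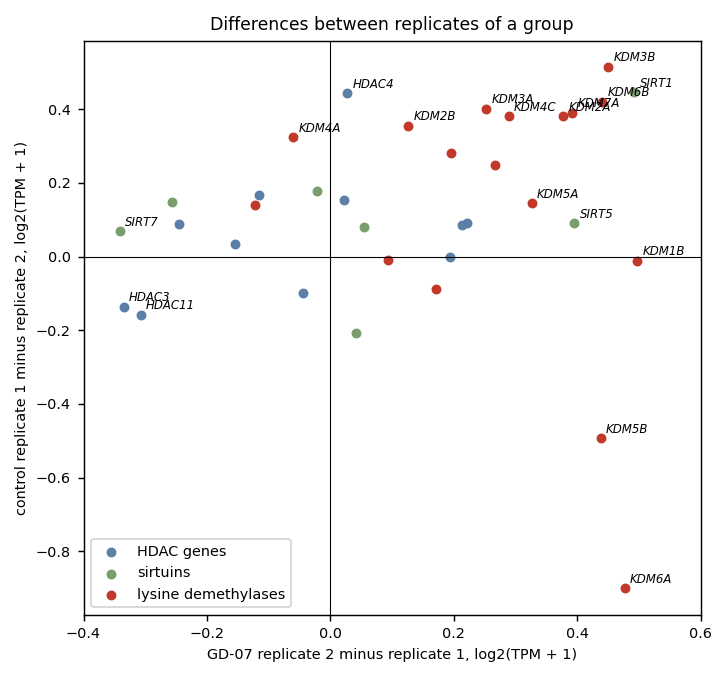
Difference between replicates of a group on the log2(TPM + 1) scale for each tested gene, GD-07 replicate 2 minus replicate 1 on the horizontal axis and control replicate 1 minus replicate 2 on the vertical axis, coloured by family; genes beyond 0.3 on either axis are named. The upper right part holds 17 of the 35 genes, whereas KDM5B and KDM6A lie at the lower right because control replicate 2 exceeded control replicate 1.

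Partners, opposing enzymes and cofactor pathways were read from the same fit. Over 11 lists with 117 distinct genes tested, 1 gene rose, 5 fell and 111 did not pass. These 6 calls of 117 stand beside 5.21% of all genes, so their share is near the background. The median log2 fold change was -0.20 with 87 of 117 negative, against a median of -0.04 and 53.8% negative over all genes. For the counts of single lists that follow, 3.19% of all genes were called lower and 2.02% higher with GD-07. No list was tested against these shares. Of 12 NuRD genes 2 fell. CHD4, the remodelling ATPase of NuRD, was at 6.96 and 5.72 TPM with GD-07, against 23.2 and 14.02 TPM in the controls (-1.38 ± 0.25, limma adjusted p = 0.0241), and GATAD2A, a scaffold subunit, at 12.4 and 13.5 TPM, against 31.3 and 21.5 TPM (-0.95 ± 0.21, limma adjusted p = 0.0369). Of 18 SIN3 genes 1 rose, ARID4A, at 20.6 and 29.8 TPM with GD-07, against 13.2 and 11.3 TPM in the controls (0.97 ± 0.21, limma adjusted p = 0.0369). The list medians were -0.13 for NuRD and -0.21 for SIN3, whose members RBBP4 and RBBP7 are shared.

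No gene passed among 8 of CoREST, 6 of NCOR/SMRT and 3 of MiDAC, with smallest p for GSE1, NCOR1 and TRERF1. GSE1 stood at -0.58 on the log2 scale (limma adjusted p = 0.158). NCOR1, the scaffold that activates HDAC3, was at 48.4 and 79.7 TPM with GD-07, against 33.7 and 39.1 TPM in the controls (0.76, limma adjusted p = 0.0812). TRERF1 had -0.69 (limma adjusted p = 0.115). The 5 complexes thus had 3 calls, on both sides of 0, in lists of 18, 12, 8, 6 and 3 genes. Over all genes 5.21% were called, and the lists were not tested against that share.

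Enzymes that write the marks had mostly negative fold changes, few of which passed. None of 9 histone acetyltransferases passed, 8 had negative values and the median was -0.44. The GD-07 values lay below both controls in 5 of the 9 (55.6%), beside 30.5% of all genes. KAT5, a MYC cofactor, was at 36.5 and 25.1 TPM with GD-07, against 49.4 and 43.1 TPM in the controls (-0.59 ± 0.20, limma adjusted p = 0.108). Of 26 histone lysine methyltransferases 2 fell, beside 3.19% of all genes, none rose and 24 did not pass. Of the 26, 22 had negative values and the median was -0.17. The GD-07 values lay below both controls in 10 (38.5%), near the 30.5% of all genes, and overlapped them in 15. Both that fell methylate lysine 36 of histone H3, the substrate of KDM2A and KDM2B. Other lysine 36 enzymes on the list, SETD2, NSD3 and ASH1L, were among the 24 that did not pass. Whether lysine 36 enzymes differ from the rest of the list was not tested. WHSC1 (NSD2) was at 20.6 and 21.2 TPM with GD-07, against 52.3 and 37.5 TPM in the controls (-1.05 ± 0.19, limma adjusted p = 0.0241), and NSD1 at 2.35 and 2.15 TPM, against 5.49 and 5.62 TPM (-1.01 ± 0.20, limma adjusted p = 0.0311). Of 13 other JmjC proteins none passed, and JMJD4 had the smallest p (-0.50, limma adjusted p = 0.122).

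Cofactor pathways had 1 call. PARP1, the main nuclear consumer of NAD+ beside the sirtuins, fell to 74.4 and 62.8 TPM with GD-07, against 136.5 and 112.8 TPM in the controls (-0.85 ± 0.16, limma adjusted p = 0.0278), the only one of 8 NAD+ genes to pass. None of 14 genes that make or use 2-oxoglutarate, succinate and fumarate passed. Of the 14, 12 were negative (85.7%, beside 53.8% of all genes), with a median of -0.25. The GD-07 values lay below both controls in 11 (78.6%), beside 30.5% of all genes. IDH2 was at 102.6 and 85.6 TPM with GD-07, against 135.5 and 136.4 TPM in the controls (limma adjusted p = 0.0716). Of the FAD synthesis pair FLAD1 had the smaller p (-0.35, limma adjusted p = 0.213). Without control replicate 1 the calls of CHD4, GATAD2A, WHSC1, NSD1 and PARP1 ended in limma (adjusted p 0.0514, 0.242, 0.0884, 0.0903 and 0.122), that of NSD1 also without control replicate 2 (0.0675) and that of ARID4A without GD-07 replicate 2 (0.079), and ARID4A, GATAD2A and PARP1 did not pass without the trend. Of the genes named here that did not pass, NCOR1, KAT5, JMJD4 and IDH2 did so without GD-07 replicate 1, NCOR1 and GSE1 without control replicate 2, and TRERF1 without GD-07 replicate 2.

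**Figure D5:**
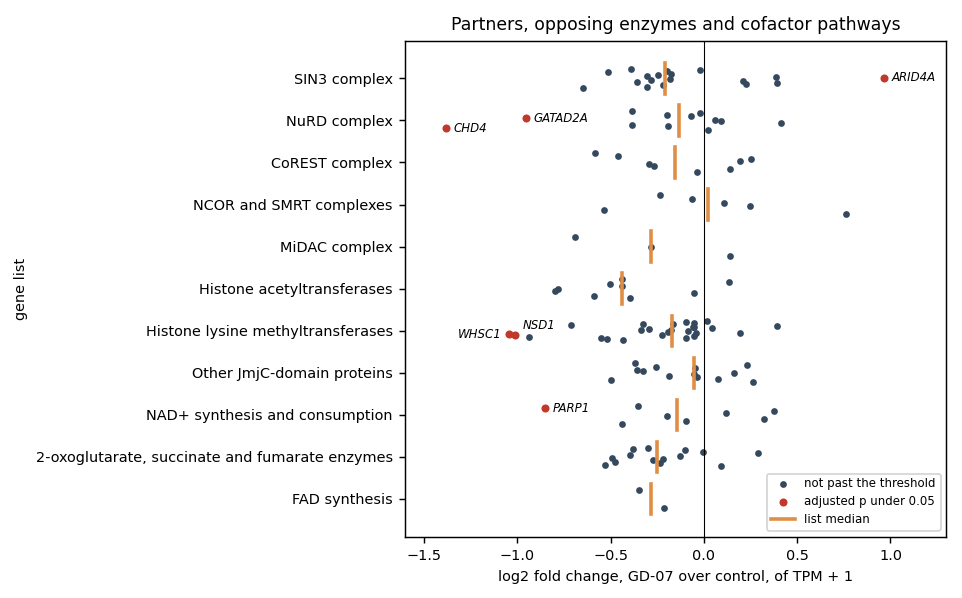
Log2 fold change of TPM + 1, GD-07 over control, for every tested gene of 11 lists of partners, opposing enzymes and cofactor pathways; each point is a gene, red where the limma adjusted p is under 0.05, and the orange bar is the list's median. The 6 named genes passed, ARID4A to the right of 0 and the other 5 to the left, and the histone acetyltransferases have the lowest median, at -0.44.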

How the data were processed

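Polyadenylated RNA of 4 A2780 libraries was sequenced from both ends, per the labels' protocols. The authors deposited TPM per gene symbol, and kallisto, Subread, limma 3.60.4 and GRCh38 are named in the submitters' processing notes without their role. How transcripts were summed per symbol is not given in the sources used here. Columns summed to 912781 to 918646 TPM, and depth is unknown, so no counting interval is given.

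The 13063 genes averaging 1 TPM or more were put on the log2(TPM + 1) scale and tested in R 4.3.3 with limma 3.58.1 (lmFit, eBayes with trend, two-sided, no block), with Benjamini-Hochberg adjustment over all of them. Fold changes are on that scale. The fit was tested on simulated data with known changes. Their errors were independent between libraries, so the simulation cannot show how the fit handles deviations shared between real libraries. Coordinates are from GENCODE 29, promoter windows from RefSeq (GRCh38.p14). The members, lists and tests were chosen with earlier results of these data known. All members were named. Of each list, up to 3 genes that passed with the largest change, or the 1 with the smallest p, were named. Leaving a library out kept the same genes, and the single library left in a group is taken to have the spread of the complete group.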

Additional observations from a re-analysis of the deposited data

How the results depend on the processing

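Over all genes, limma called 681. The count was 385 without the intensity trend and 0 of 26773 with no filter on low values (3970 at an unadjusted p under 0.05), and 310 to 2217 when 1 library was left out. The other planned settings stayed within 1.5 times of it. Of the members 1 was called. The count was 0 with a pseudocount of 0.1 TPM (7 at an unadjusted p under 0.05), 0 with no filter (6) and 0 without the trend (8). It was 2 of 29 with the minimum mean raised to 5 TPM, beside 884 of 9621 genes. These were KDM2B and KDM5B, and KDM5B met that mean only through the GD-07 libraries. Under median-ratio rescaling the count of members was 4 of 35, beside 790 of 13063 genes, and under quantile normalization 2, beside 778. With 1 library left out it changed as well, as did the count over all genes. The cause was not tested.

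The labels do not say that replicate numbers pair the libraries, and deviations of same-numbered libraries from their group means correlated at -0.28 across genes. With the replicate block 912 genes and 2 members, KDM1B and KDM5B, were called by limma. With the numbers crossed, an alternative chosen after seeing the data, 2934 genes and 7 members were called.

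Of the 35 members 23 had the same sign in every setting. The sign turned for KDM1A under median-ratio rescaling (0.012) and quantile normalization (0.0532), for KDM2A (0.0284 and 0.0538) and SIRT1 (0.0172 and 0.0383) under the same settings, and for HDAC9 under quantile normalization (0.0243). Without 1 library, log2 fold changes ranged from -0.10 to 0.20 for HDAC11, -0.11 to 0.22 for HDAC3, -0.18 to 0.0377 for HDAC9, -0.11 to 0.0636 for KDM1A, -0.19 to 0.19 for KDM2A, -0.11 to 0.29 for KDM3A, -0.0181 to 0.31 for KDM4A, -0.21 to 0.0532 for KDM4B, -0.10 to 0.34 for KDM6B, -0.14 to 0.00083 for KDM8, -0.26 to 0.23 for SIRT1 and -0.32 to 0.078 for SIRT5. None of these passed in any setting. TPM keeps no depth, so the precision of low genes such as KDM1B is unknown.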
